A study of Mus musculus with 6 samples.

Results

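The collagen genes of mouse hind limb muscle were compared between mice with and without Baf155 in their myofibers. Members were all genes of the deposited table whose symbol reads Col, a type number, the letter a and a chain number, which gave 44 of 20632 genes. The symbol Col4a3bp, a ceramide transfer protein that is not a collagen, did not meet this form. By the classes used here, 6 members encoded the fibrillar types I, III and V, 8 the basement membrane types IV, XV and XVIII, 6 type VI and 24 the other types. Total RNA came from the whole hind limb (TA, EDL, GA, SOL and Q muscles) of unexercised 3-month-old male C57BL/6 mice, with 3 mice per genotype and 1 library per mouse. Baf155ΔMF mice, labelled Baf155 -/-, carried loxP-flanked Baf155 alleles and Cre driven by the promoter of muscle creatine kinase (MCK). The Baf155WT mice, labelled wild type, are described in the study as the same floxed alleles without Cre. The MCK promoter is active in myofibers, so the fibroblasts, endothelial cells and other cells of the muscle were not the target of the deletion. In bulk tissue, fewer cells of a type and less RNA per cell cannot be told apart.

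Collagens are the main proteins of the extracellular matrix. Each molecule is a trimer of chains that wind around each other, which requires a glycine at regular steps, in the first place of each triplet of residues, in the collagenous part of each chain. Fibrillar collagens form the cross-striated fibrils of the endomysium, perimysium, epimysium and tendon, type IV forms the network of the basement membrane around each myofiber and capillary, and type VI forms beaded filaments at the border between them. In muscle these genes are read mostly in fibroblasts, in fibro-adipogenic progenitors and, for type IV, in endothelial cells and pericytes as well as in myofibers. Baf155, encoded by Smarcc1, is a scaffold subunit of the SWI/SNF chromatin remodelling complex.

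The repeat that defines the family can be read in the coding sequence, where glycine codons start with GG. The stretches below are the first 10 triplets of a long run in a fibrillar and a type VI chain, and a place where the repeat is broken in each of the main type IV chains. Sequences run 5′ to 3′ in coding direction, glycine codons of the repeat are in capitals, codons are counted from 1 at the start codon, and the transcripts are those of GENCODE M21 on GRCm38.
Col1a1, codons 168 to 197, without a break: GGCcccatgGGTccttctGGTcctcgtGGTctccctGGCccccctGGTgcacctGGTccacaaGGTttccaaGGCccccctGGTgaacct
Col6a1, codons 256 to 285, without a break: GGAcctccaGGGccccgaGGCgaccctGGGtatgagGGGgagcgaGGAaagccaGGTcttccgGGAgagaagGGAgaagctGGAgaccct
Col4a1, codons 212 to 237, with 2 extra codons after the fourth triplet: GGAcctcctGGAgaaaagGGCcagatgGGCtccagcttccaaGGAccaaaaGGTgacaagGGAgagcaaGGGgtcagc
Col4a2, codons 277 to 302, with 2 extra codons after the fourth triplet: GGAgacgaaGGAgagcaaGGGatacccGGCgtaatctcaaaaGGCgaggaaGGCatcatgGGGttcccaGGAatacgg

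Counting runs of at least 5 triplets, the fibrillar genes each held 1 very long run of 337 to 344 triplets. The longest run of Col1a1 had 338 triplets. Col2a1, Col11a1 and Col11a2 had runs of the same size, with 339, 338 and 338 triplets. Types II and XI are fibrillar collagens as well, but the classes used here place them among the other types. In the basement membrane genes the repeat was broken into 10 to 24 runs, the longest of 30 to 66 triplets. Col4a1 held 16 runs with at most 40 triplets, and Col4a2 held 22 runs with at most 66. Type VI chains held 2 to 4 runs of at most 37 to 87 triplets, and in Col6a3, a chain made mostly of von Willebrand A domains, the repeat took only 7.95% of the codons.

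**Figure D1:**
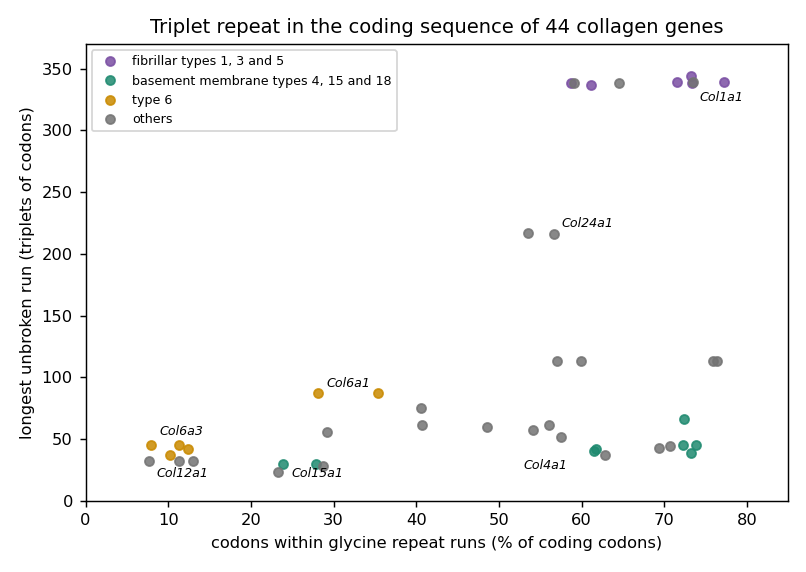
Glycine repeat in the coding sequence of the 44 collagen genes. The x axis is the percentage of coding codons within runs of at least 5 triplets and the y axis is the longest unbroken run in triplets, with colours for the 4 classes. The genes of types I, III and V lie at the top with 337 to 344 triplets, whereas type IV, XV and XVIII genes reach at most 66. Col2a1, Col11a1 and Col11a2 also lie at the top, with 339, 338 and 338 triplets. They are fibrillar collagens too, but are coloured here with the other types.

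The libraries held between 8426022 and 12469335 counts. Values are given as TMM-scaled CPM, that is counts brought to a common library size after a correction for library composition. A floor of 3 counts corresponded to 0.230 to 0.351 CPM. Smarcc1 was lower in every Baf155ΔMF mouse, with 7.10 ± 0.590 CPM against 19.96 ± 3.25 CPM (SD, n = 3 each; log2 fold change -1.49 ± 0.15 SE, adjusted p = 0.00907 by edgeR). Mouse names start with MS13, MS14 or MS15, whose meaning the labels do not state. Both genotypes had mice of prefix MS13 (1 Baf155WT, MS13-3, and 2 Baf155ΔMF, MS13-1 and MS13-2). The other Baf155WT mice (MS15-2 and MS15-3) and the other Baf155ΔMF mouse (MS14-2) did not share a prefix, so outside MS13 prefix and genotype cannot be told apart. Log2 differences within MS13 are therefore given beside the values of the collagen genes.

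Together the collagen genes had 2439, 2258 and 2577 CPM in the Baf155WT mice MS13-3, MS15-2 and MS15-3, and 2540, 2257 and 3462 CPM in the Baf155ΔMF mice MS13-1, MS13-2 and MS14-2. The genotypes overlapped, and MS14-2 stood above the other 5 mice. Over all 6 mice, fibrillar genes made up 53.2% of the collagen CPM, basement membrane genes 20.97%, type VI genes 19.2% and the other types 6.60%.

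Levels of different genes were compared per kilobase of transcript (CPM per kb, mean ± SD of 6 mice). Col3a1, the chain of the pliable type III fibrils, was highest with 91.7 ± 24.4 CPM per kb. It was followed by Col1a2 (64.6 ± 14.2) and Col1a1 (40.5 ± 12.6), the chains of the stiff type I fibrils, and by Col4a1 (39.9 ± 4.26), the more abundant chain of the common type IV trimer. Col3a1 exceeded Col1a2, and Col1a2 exceeded Col1a1, in all 6 mice. Col1a1 exceeded Col4a1 in only 4 of 6 mice, so these neighbours in the order did not differ beyond their spread. Col6a1 (32.7 ± 5.17) exceeded Col6a2 (25.9 ± 4.62) in 6 of 6 mice. Col5a3, Col5a1 and Col5a2, which encode the type V chains that limit fibril width, were at 13.2 to 13.4 CPM per kb, and neither Col5a3 and Col5a1 nor Col5a1 and Col5a2 kept the same order in all mice.

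For the comparison of genotypes, 36 of the 44 members passed the filter on low counts. None had an adjusted p under 0.05 in edgeR's quasi-likelihood test, where 3 of 12116 genes tested (0.0248%) did, and none passed with DESeq2 or limma-voom. At an unadjusted p under 0.05 there were 3 collagen genes (Col4a2, Col4a3 and Col6a5), or 8.33% of those tested, against 7.95% of all genes tested. DESeq2 gave 2 of 44, Col4a1 and Col4a2 (3.84% of 16273 genes), and so neither Col4a3 nor Col6a5. With limma-voom there were 3 of 36, the same genes as in edgeR (7.76% of all genes). In 7 collagen genes the 3 Baf155ΔMF values lay wholly above or below the 3 Baf155WT values, where 10.8% of all genes did. In 4 of them (Col4a1, Col4a2, Col4a3 and Col4a6) the Baf155ΔMF values were the higher ones, as in 5.20% of all genes, and in 3 (Col6a5, Col8a2 and Col9a1) they were the lower ones, as in 5.57% of all genes. The fitted log2 fold change was below 0 in 10 and above 0 in 26 collagen genes, whereas it was below 0 in 50.2% of all genes. Scaling by library size alone moved this split to 16 below and 20 above.

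The median log2 fold change was 0.10 over the 36 collagen genes and -0.00 over all genes tested. By class it was 0.19 for the fibrillar genes, 0.30 for the basement membrane genes, 0.05 for type VI (-0.01 with scaling by library size alone) and -0.08 for the other types. Among MS13 mice alone the median over the 36 genes was -0.03, with 22 of 36 below 0. There the fibrillar median was -0.09 with 5 of 6 genes below 0, whereas the medians of the basement membrane genes (0.07), type VI (0.03) and the other types (-0.10) had the same sign as in the full comparison. Transcripts of the collagen genes tested were longer than usual (median 6285 against 3258 bases for all genes tested), and over all genes the log2 fold change correlated with transcript length (Spearman rho = 0.341, a description across genes that share the 6 libraries). With the trend on length removed the median over collagen genes was 0.02. By class it was then 0.11 for the fibrillar genes, 0.20 for the basement membrane genes, -0.07 for type VI and -0.13 for the other types.

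**Figure D2:**
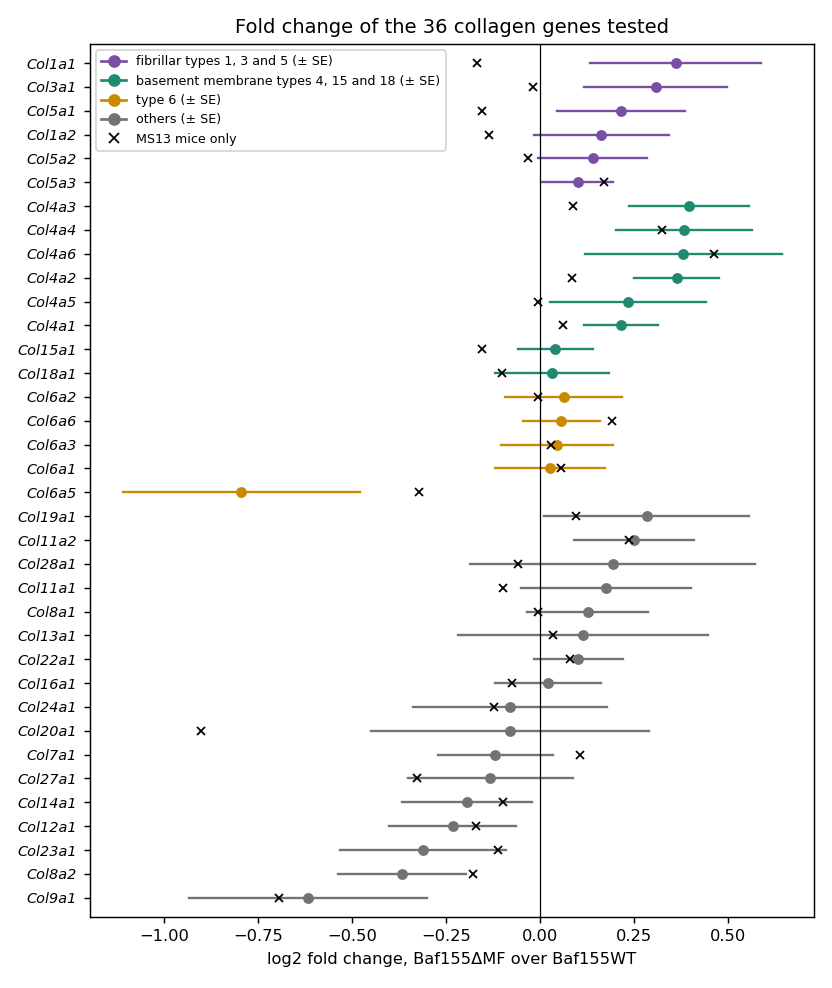
Log2 fold change of the 36 collagen genes tested, Baf155ΔMF over Baf155WT, with 1 row per gene ordered by class. Circles and bars are the edgeR estimate ± SE from 3 mice per genotype, and crosses are the mean log2 difference among MS13 mice alone (2 Baf155ΔMF against 1 Baf155WT). All 6 type IV genes lie to the right of 0, and 5 of 6 fibrillar genes have their cross to the left of 0.

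In the fibrillar class the gene levels depended on 1 mouse. Col1a1 (chromosome 11, 94936224 to 94953042, GRCm38), the alpha 1 chain of type I, whose repeat is shown above, had 242, 157 and 232 CPM in Baf155WT mice and 248, 187 and 375 CPM in Baf155ΔMF mice. Its log2 fold change was 0.36 ± 0.23 (SE, adjusted p = 0.666 by edgeR, 95% interval -0.14 to 0.86), and -0.17 among MS13 mice. The genotypes overlapped, and the Baf155ΔMF mouse MS14-2 had the highest value of all.

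Col1a2, the partner chain of type I, had 332, 294 and 353 CPM against 338, 270 and 487 CPM (log2 fold change 0.16 ± 0.18, adjusted p = 0.799; -0.14 among MS13 mice). Col3a1 had 460, 427 and 481 CPM against 493, 419 and 782 CPM (log2 fold change 0.31 ± 0.19, adjusted p = 0.660, 95% interval -0.11 to 0.72; -0.02 among MS13 mice). In both genes MS14-2 was again the highest mouse, and MS13-2 of the same genotype was the lowest of the 6.

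Among the type V chains, Col5a1 had 111, 96.8 and 104 CPM against 105, 95.3 and 163 CPM, and Col5a2 had 80.9, 80.8 and 88.2 CPM against 83.6, 74.8 and 117 CPM. Their log2 fold changes were 0.21 ± 0.17 and 0.14 ± 0.15 (adjusted p = 0.716 and 0.786), with -0.155 and -0.03 among MS13 mice. Both followed the pattern of Col1a2 and Col3a1, with MS14-2 highest and MS13-2 lowest. Col5a3, a chain of a less common type V trimer, did not: it had 76.0, 73.8 and 87.7 CPM in Baf155WT mice and 89.2, 82.0 and 83.3 CPM in Baf155ΔMF mice (log2 fold change 0.10 ± 0.10, adjusted p = 0.765; 0.17 among MS13 mice). Without MS14-2 the log2 fold change was 0.05 for Col1a1 and 0.002 for Col3a1, and the fibrillar median was -0.03, so the sign of this class rested on that mouse.

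**Figure D3:**
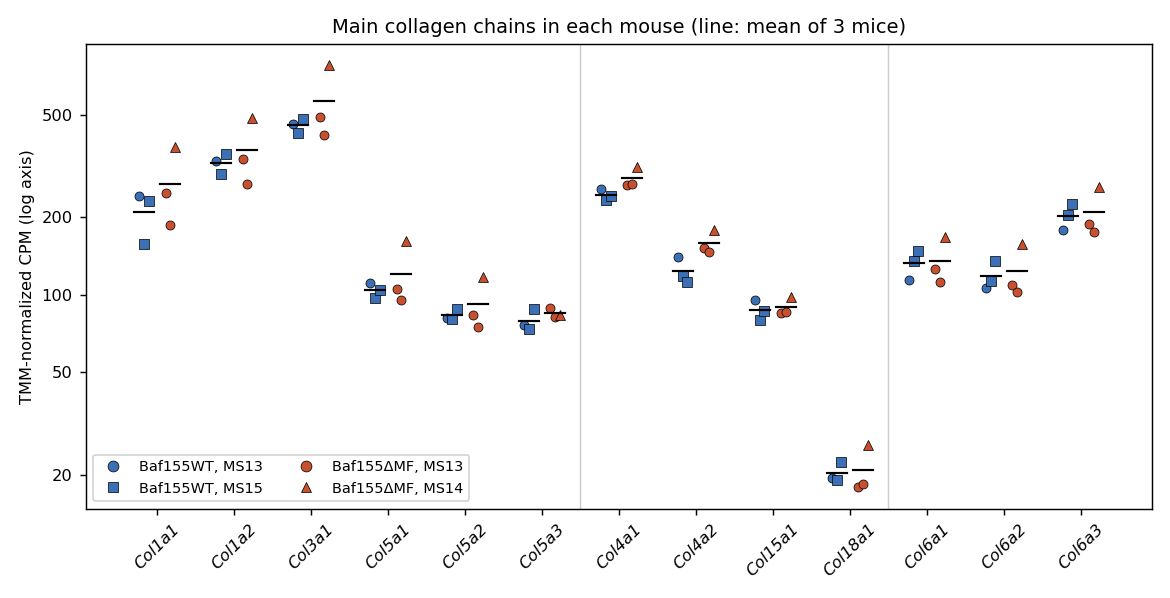
TMM-scaled CPM of the main collagen chains in each of the 6 mice, on a log axis, with 1 point per mouse and a line at the mean of the 3 mice of each genotype. MS14-2 is the highest point for Col1a1, Col1a2 and Col3a1 (375, 487 and 782 CPM), while the points of Col4a1 and Col4a2 do not overlap between genotypes.

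The type IV genes, a subset singled out after their values were seen, are arranged as 3 head-to-head pairs in the mouse genome. Col4a1 (chromosome 8, 11198423 to 11312826) and Col4a2 (chromosome 8, 11312805 to 11449287) overlap by 22 bases at their starts, Col4a4 (chromosome 1, 82448423 to 82586849) and Col4a3 (chromosome 1, 82586921 to 82722059) are 71 bases apart, and Col4a6 and Col4a5 on the X chromosome are 1308 bases apart. The interval that Col4a4 and Col4a3 share is shown because it is all the sequence that separates these oppositely transcribed genes. It is given on the plus strand of GRCm38.p6, in the direction of Col4a3.
chr1:82586850-82586920: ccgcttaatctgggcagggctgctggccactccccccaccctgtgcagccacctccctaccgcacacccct
The interval had 69.0% G and C. It held none of the motifs GGGCGG (the GC box), CCAAT and TATAAA on either strand, which occurred in 20.7%, 13.3% and 4.41% of 32851 windows of the same length directly upstream of RefSeq gene starts.

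Col4a2, the alpha 2 chain of the type IV trimer found in most basement membranes, had 141, 118 and 112 CPM in Baf155WT mice and 152, 146 and 178 CPM in Baf155ΔMF mice. The values did not overlap. The log2 fold change was 0.36 ± 0.11 (95% interval 0.11 to 0.61), with an edgeR p of 0.00865 before and an adjusted p of 0.601 after correction over all genes. Among MS13 mice it was 0.09. The adjusted p was 0.0120 when the Baf155WT mouse MS13-3 was left out, a fit in which 955 of 12288 genes (7.77%) passed. Without MS13-3 no prefix held mice of both genotypes, so prefix and genotype cannot be told apart in that fit.

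Col4a1, which contributes a pair of chains to the same trimer, had 258, 233 and 242 CPM against 267, 270 and 314 CPM. These values did not overlap either. The log2 fold change was 0.21 ± 0.10 (adjusted p = 0.622 by edgeR, 95% interval -0.00 to 0.43), and 0.06 among MS13 mice.

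Col4a3, Col4a4 and Col4a5 form the trimer best known from the glomerulus of the kidney, and here they were at 0.905 to 1.51 CPM per kb, far below Col4a1. Col4a3 had 7.77, 6.04 and 6.25 CPM in Baf155WT mice and 8.54, 7.995 and 9.82 CPM in Baf155ΔMF mice (log2 fold change 0.40 ± 0.16, adjusted p = 0.601 by edgeR; 0.09 among MS13 mice). Col4a4, its neighbour across the interval shown above, had 9.23, 7.27 and 7.76 CPM against 10.5, 12.9 and 8.07 CPM (log2 fold change 0.38 ± 0.18, adjusted p = 0.622; 0.32 among MS13 mice). The genotypes were apart in Col4a3 and overlapped in Col4a4, where MS14-2 had the lowest Baf155ΔMF value although it had the highest in Col4a3.

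Col4a5 had 9.13, 7.04 and 11.1 CPM against 9.61, 8.62 and 13.8 CPM, with overlap (log2 fold change 0.23 ± 0.21, adjusted p = 0.747; -0.01 among MS13 mice). Col4a6, a chain of smooth muscle and some epithelial basement membranes, had 1.36, 1.45 and 1.70 CPM against 2.03, 1.87 and 1.99 CPM (log2 fold change 0.38 ± 0.26, adjusted p = 0.688). Its values did not overlap and the difference was as large among MS13 mice (0.46), at a low count. The median over the 6 type IV genes was 0.37, and 0.09 among MS13 mice with 1 of 6 genes below 0. Summed type IV CPM was 426, 373 and 381 in Baf155WT mice and 450, 448 and 526 in Baf155ΔMF mice. Most of this sum was from Col4a1 and Col4a2.

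Type XV and type XVIII are proteoglycans of the basement membrane zone, and type XVIII is the source of endostatin. Col15a1 had 95.1, 80.0 and 86.6 CPM against 84.9, 85.9 and 98.3 CPM (log2 fold change 0.04 ± 0.10, adjusted p = 0.917 by edgeR). Col18a1 had 19.4, 19.0 and 22.4 CPM against 17.8, 18.4 and 26.1 CPM (log2 fold change 0.03 ± 0.15, adjusted p = 0.958). The genotypes overlapped in both, and both fold changes were below 0 when libraries were scaled by size alone (-0.02 and -0.03) and among MS13 mice (-0.16 and -0.10).

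Type VI is the collagen whose chains are mutated in Ullrich and Bethlem muscle disease. Its main trimer joins the products of Col6a1, Col6a2 and Col6a3. Col6a1 had 114, 135 and 148 CPM in Baf155WT mice and 126, 112 and 167 CPM in Baf155ΔMF mice. Col6a2 had 106, 113 and 135 CPM against 110, 103 and 158 CPM. Col6a3 had 178, 204 and 225 CPM against 189, 175 and 263 CPM. In each of these genes MS14-2 was the highest mouse and the genotypes overlapped. The log2 fold changes were 0.03 ± 0.15, 0.06 ± 0.16 and 0.05 ± 0.15 (adjusted p = 0.964, 0.920 and 0.938 by edgeR), and those of Col6a1 and Col6a3 were -0.03 and -0.01 with scaling by library size alone. Among MS13 mice the log2 differences were 0.06, -0.01 and 0.03.

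The chains that can take the place of the Col6a3 product differed from each other in value. Col6a5 (chromosome 9, 105856078 to 105960643) had 1.36, 2.07 and 2.23 CPM in Baf155WT mice and 1.18, 0.935 and 1.17 CPM in Baf155ΔMF mice. These values did not overlap (log2 fold change -0.80 ± 0.32, adjusted p = 0.601 by edgeR), with -0.32 among MS13 mice (2 Baf155ΔMF against 1 Baf155WT). Col6a6, which lies 27917 bases away, had 30.8, 34.7 and 37.3 CPM against 35.98, 34.4 and 36.6 CPM (log2 fold change 0.06 ± 0.10, adjusted p = 0.883; -0.01 with scaling by library size alone and 0.19 among MS13 mice). The deposited estimates of both genes were fractional in 6 of 6 mice, which occurs where reads are divided between genes. In each mouse the estimates of Col6a5 and Col6a6 added up to a whole number, as where reads are divided between this pair. The level of Col6a5 is therefore uncertain, and its value is not separate from that of Col6a6. Col6a4 had at most 3 counts in any mouse and is at or below the floor in both genotypes.

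Of the 24 other members, 17 were tested, of which 9 had a fold change below 0 and 8 above 0. Col8a2, a short-chain collagen of vascular and corneal matrix, had 5.15, 6.43 and 5.80 CPM in Baf155WT mice and 4.70, 4.36 and 4.44 CPM in Baf155ΔMF mice (log2 fold change -0.37 ± 0.17, adjusted p = 0.622 by edgeR). Col9a1, a chain of the cartilage type IX that decorates fibrils, had 1.65, 1.22 and 1.70 CPM against 0.961, 0.935 and 1.05 CPM (log2 fold change -0.62 ± 0.32, adjusted p = 0.626). Neither overlapped between genotypes, and among MS13 mice the log2 differences were -0.18 for Col8a2 and -0.69 for Col9a1.

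Type XII and type XIV bind the surface of fibrils in dense connective tissue. Col12a1 had 40.3, 41.8 and 56.2 CPM against 43.4, 29.6 and 44.9 CPM (log2 fold change -0.23 ± 0.17, adjusted p = 0.696 by edgeR; -0.17 among MS13 mice). Col14a1 had 24.2, 33.4 and 31.9 CPM against 20.7, 24.6 and 33.2 CPM (log2 fold change -0.20 ± 0.17, adjusted p = 0.746; -0.10 among MS13 mice). Unlike the type I chains, neither gene had a Baf155ΔMF mouse far above the rest. Col22a1, a collagen of the myotendinous junction, had 19.5, 18.3 and 17.6 CPM against 22.5, 18.9 and 17.9 CPM (log2 fold change 0.10 ± 0.12, adjusted p = 0.816; 0.08 among MS13 mice).

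The remaining 12 tested genes of this class (Col7a1, Col8a1, Col11a1, Col11a2, Col13a1, Col16a1, Col19a1, Col20a1, Col23a1, Col24a1, Col27a1 and Col28a1) overlapped between genotypes. Their means over 6 mice were at most 1.94 CPM per kb. Col20a1 had the widest gap between the prefix MS13 and the full comparison, with a log2 difference of -0.90 among MS13 mice and values of 3.21, 1.301 and 1.87 CPM against 1.82, 1.45 and 2.69 CPM.

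The 8 members that did not pass the filter were Col2a1, Col6a4, Col9a2, Col9a3, Col10a1, Col17a1, Col25a1 and Col26a1. Col2a1, the main collagen of cartilage, and the type IX chains Col9a2 and Col9a3 were near the floor. Col10a1, a collagen of hypertrophic cartilage, had 7, 8 and 4 counts in Baf155WT mice and 16, 9 and 6 counts in Baf155ΔMF mice. Col17a1, a transmembrane collagen of epithelial hemidesmosomes, had 3, 7 and 2 counts against 12, 6 and 7 counts. Col25a1, a transmembrane collagen, had 0, 0 and 5 counts against 2, 1 and 3 counts. These genes had no part in the main comparison. Fitted without the filter, Col10a1 and Col17a1 were among 6 of 44 collagen genes with an unadjusted p under 0.05 (7.86% of 16274 genes in that fit) and none had an adjusted p under 0.05. Their CPM values, unlike their counts, did not overlap between genotypes.

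Because several trimers join 2 different chains, ratios of chains were compared within mice. The ratio of Col3a1 to Col1a1, chains of different collagen types that share no trimer, was also taken. The 5 ratios were compared with a two-sided exact permutation test over the 20 assignments of mice to genotypes. Its smallest possible p is 0.10, so none could pass 0.05. Ratios are of CPM without division by length, and only their difference between genotypes is of interest. The ratio of Col1a1 to Col1a2 was 0.641 ± 0.0976 in Baf155WT and 0.732 ± 0.0392 in Baf155ΔMF mice (SD, n = 3 each; log2 difference 0.20, exact permutation p = 0.20, 0.50 after adjustment over the 5 ratios). The ratio of Col4a1 to Col4a2 was 1.83, 1.97 and 2.16 in Baf155WT and 1.75, 1.85 and 1.76 in Baf155ΔMF mice (log2 difference -0.15, exact permutation p = 0.20, adjusted 0.50). These overlapped by 1 mouse. The ratio of Col3a1 to Col1a1 was 2.23 ± 0.428 against 2.103 ± 0.125 (exact permutation p = 0.90). The ratio of Col5a1 to Col5a2 was 1.25 ± 0.108 against 1.31 ± 0.0707, and that of Col6a1 to Col6a2 was 1.12 ± 0.0655 against 1.101 ± 0.0433 (exact permutation p = 0.50 and 0.60, both 0.75 after adjustment). Among MS13 mice the log2 differences of the 5 ratios lay between -0.12 for Col5a1 to Col5a2 and 0.15 for Col3a1 to Col1a1.

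Per mouse, the median deviation of the 36 genes from their mean over 6 mice was -0.03, -0.11 and 0.07 on the log2 scale in the Baf155WT mice MS13-3, MS15-2 and MS15-3, and -0.01, -0.16 and 0.24 in the Baf155ΔMF mice MS13-1, MS13-2 and MS14-2. MS14-2 was the highest of the 6 mice in 18 of the 36 genes, where it was the highest in 15.5% of all genes tested. These were 5 of the 6 fibrillar genes, 6 of the 8 basement membrane genes, 3 of the 5 type VI genes and 4 of the 17 other types tested. MS13-2, of the same genotype, was the lowest in 14 of the 36 genes, a count for which no share over all genes tested was computed. Col1a2, Col3a1, Col5a1 and Col5a2 thus had both their highest and their lowest levels within 1 genotype, and the median deviation of the 6 fibrillar genes in MS14-2 was 0.54.

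**Figure D4:**
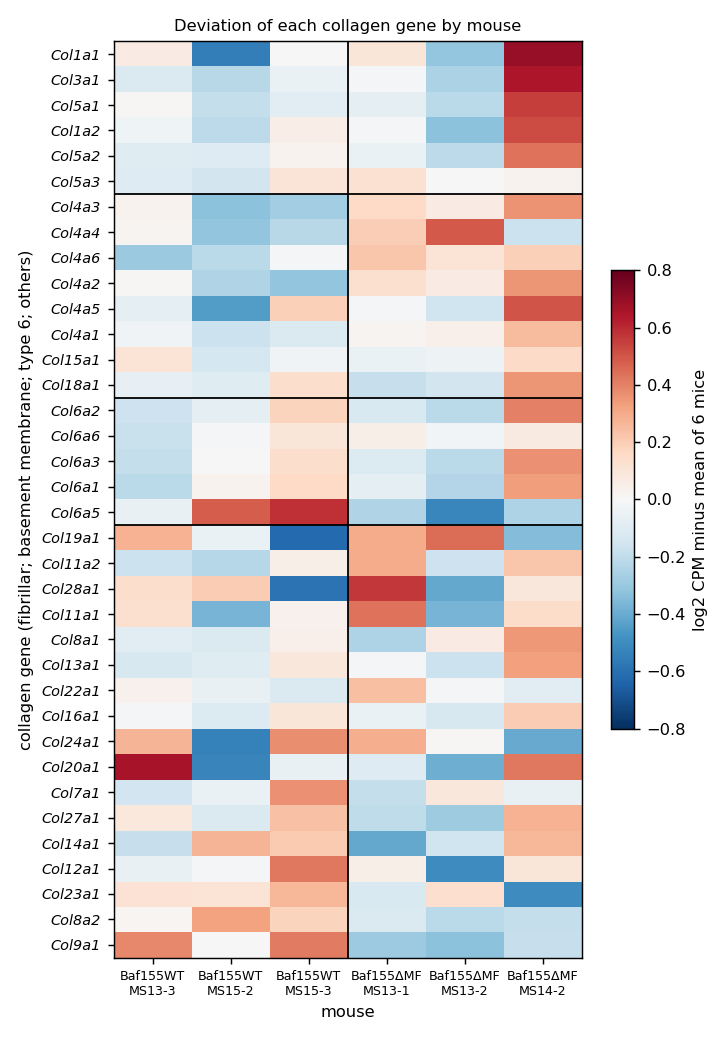
Deviation of each of the 36 collagen genes in each mouse from its mean over the 6 mice, in log2 CPM, with 1 row per gene grouped by class and 1 column per mouse. The column of MS14-2 holds a block of higher values in the fibrillar genes (median deviation 0.54).

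Leaving out 1 mouse at a time shows which class medians depended on single mice. The fibrillar median was -0.03 without MS14-2, and the medians of type VI (-0.15) and of all collagen genes (-0.04) were then below 0 as well. The type VI median was also below 0 without the Baf155WT mouse MS13-3 (-0.04). The median of the other types was above 0 without MS13-3 (0.03), MS15-3 (0.05) or MS13-2 (0.09). The type IV median lay between 0.29 and 0.39 in all 6 such fits, but this subset was singled out after its values were seen. Its steadiness is therefore no test. The median of the whole basement membrane class lay between 0.21 and 0.33. With the mouse name prefix as a covariate the medians were 0.09 for type IV and 0.07 for the whole class. In that fit the genotype difference rests on the MS13 mice alone.

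**Figure D5:**
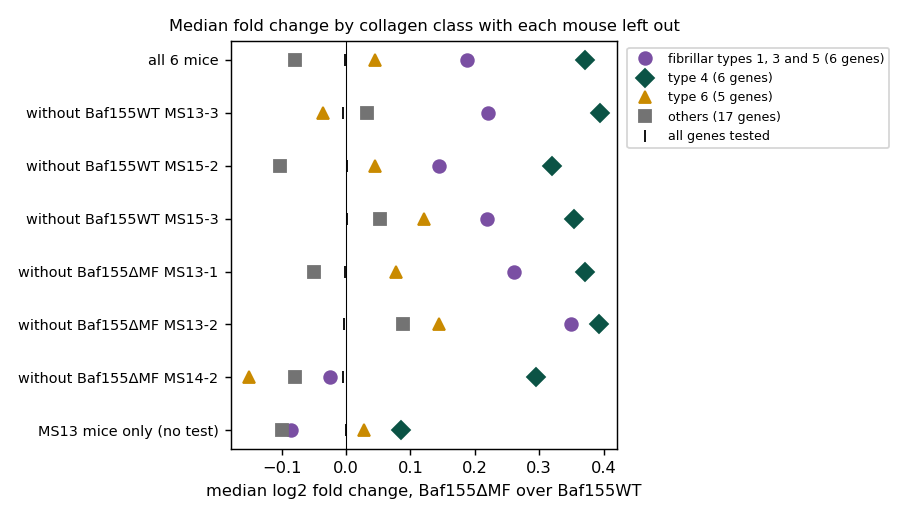
Median log2 fold change, Baf155ΔMF over Baf155WT, of the fibrillar, type IV, type VI and other collagen genes and of all genes tested. Rows are the fit with all 6 mice, the fits after removal of each single mouse, and MS13 mice alone without a test. The type IV median lies between 0.29 and 0.39 when single mice are removed and is 0.09 among MS13 mice. Type IV is a subset singled out after its values were seen. The fibrillar median goes to -0.03 without MS14-2 and is -0.09 among MS13 mice.

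Markers of the cells that make collagen also differed in value between the mice. For the counts of markers below, 7.95% of all genes tested had an unadjusted p under 0.05 by edgeR. Over all genes tested, 10.8% did not overlap between genotypes. All 8 markers of fibroblasts and fibro-adipogenic progenitors had a log2 fold change below 0 (median -0.37, 4 at an unadjusted p under 0.05 by edgeR and none adjusted), with summed levels of 2670, 3904 and 3613 CPM in Baf155WT and 2374, 2356 and 3325 CPM in Baf155ΔMF mice. All 7 tenocyte markers tested had a fold change below 0 (median -0.24, 1 at an unadjusted p under 0.05 by edgeR and none adjusted). Their sums were 249, 319 and 329 CPM against 242, 205 and 305 CPM. The median of both lists was below 0 where that of the fibrillar genes was above 0, and MS14-2 held the highest sum of both within its genotype. Transcripts were 955 to 6834 bases long in the fibroblast list, 1035 to 3650 in the tenocyte list and 5348 to 8406 in the fibrillar genes. With the trend on length removed the fibrillar median was 0.11. No such value is given for the marker lists, so the part of transcript length in these signs was not tested. All 7 endothelial markers were above 0 (median 0.29), as were the type IV genes, with sums of 304, 235 and 245 CPM against 308, 332 and 303 CPM. Pecam1 and Kdr did not overlap between genotypes and had an unadjusted p under 0.05 by edgeR, with none adjusted. Markers of smooth muscle cells and pericytes had 817, 651 and 688 CPM against 863, 924 and 788 CPM, with 5 of 7 above 0. Their median was 0.11, with 2 at an unadjusted p under 0.05 by edgeR and none adjusted. Among MS13 mice the median was 0.00 for endothelial markers, -0.09 for smooth muscle cells and pericytes, -0.18 for fibroblasts and -0.29 for tenocytes. All 6 macrophage markers were below 0 (median -0.88, all at an unadjusted p under 0.05 and none adjusted), with 78.0, 205 and 172 CPM against 72.2, 71.3 and 108 CPM. Among MS13 mice this median was -0.15. The median was -0.43 for adipocyte markers (5 of 6 below 0, and -0.03 among MS13 mice). It was 0.15 for Schwann cells (-0.03 among MS13 mice) and -0.06 for satellite cells (-0.08 among MS13 mice). The 9 myofiber genes had a median of -0.09 (0.05 among MS13 mice), with 5 below 0 and 4 above. Their sums were 142339, 149399 and 151920 CPM in Baf155WT and 142111, 141781 and 137224 CPM in Baf155ΔMF mice. Of these, Myh1 and Myh2 (log2 fold change 0.49 and 0.38) had an unadjusted p under 0.05 by edgeR. Without overlap were Myh1 and Mb, higher in Baf155ΔMF, and Ckm, lower. None of the 7 listed markers of cartilage and bone cells passed the filter, and their summed level was 0.291, 0.459 and 2.59 CPM in Baf155WT mice and 0.214, 0.312 and 0.585 CPM in Baf155ΔMF mice. In the keratinocyte list, 3 of 6 markers had no counts in any mouse. Only Krt10 was tested, without overlap and at a low count (log2 fold change 0.57 ± 0.32, adjusted p = 0.643 by edgeR, and 0.30 among MS13 mice). The part of these cell types in the collagen values was not tested.

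The genes that build, process, degrade and bind collagen were counted from lists, and no gene of any list had an adjusted p under 0.05. Among enzymes and chaperones of collagen synthesis in the endoplasmic reticulum, 12 of the 17 tested were below 0 and 5 above, with none at an unadjusted p under 0.05 and a median of -0.06. Those with the highest CPM, not divided by length, were Mia3, which exports procollagen from the endoplasmic reticulum, and P4hb, a subunit of prolyl 4-hydroxylase. Mia3 had 201 ± 12.6 CPM in Baf155WT and 207 ± 11.4 CPM in Baf155ΔMF mice, and P4hb had 207 ± 18.1 against 187 ± 2.61 CPM (SD, n = 3 each). Neither was separated by genotype, and the list's median among MS13 mice was -0.05. Among genes of procollagen processing and cross-linking, 8 of 12 were below 0 (median -0.07, and -0.10 among MS13 mice). Pcolce2, an enhancer of procollagen C-proteinase, had 11.4, 21.3 and 16.9 CPM in Baf155WT mice and 9.61, 10.2 and 12.6 CPM in Baf155ΔMF mice (log2 fold change -0.63 ± 0.21, adjusted p = 0.601 by edgeR; -0.20 among MS13 mice). Loxl2, a lysyl oxidase that cross-links chains, had 46.6 ± 3.48 against 50.9 ± 10.4 CPM, and Pcolce had 41.1 ± 7.51 against 35.2 ± 9.81 CPM, with overlap in both.

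Among genes of collagen degradation and uptake, 7 of 8 were below 0 (median -0.15, and -0.11 among MS13 mice). The metalloproteinase inhibitors Timp3 and Timp2 had the highest CPM, with 186 ± 19.1 against 192 ± 20.3 CPM for Timp3 and 158 ± 21.6 against 136 ± 25.9 CPM for Timp2, with overlap in both. Mmp9, the gelatinase B carried by macrophages and neutrophils, had 2.72, 7.65 and 5.44 CPM against 2.03, 2.28 and 3.16 CPM (log2 fold change -1.11 ± 0.35, adjusted p = 0.601 by edgeR; -0.31 among MS13 mice). Among collagen receptors, 3 of 9 were below 0 and 6 above (median 0.06, and -0.13 among MS13 mice). Itgb1, the beta subunit shared by the collagen-binding integrins, had 217 ± 14.1 against 226 ± 3.37 CPM, and Ddr2, a receptor tyrosine kinase for fibrillar collagen, had 84.8 ± 1.002 against 82.4 ± 7.47 CPM. Itga1, the alpha subunit of the integrin that binds type IV, had 33.4, 24.7 and 25.2 CPM against 35.2, 37.7 and 32.0 CPM, with overlap (log2 fold change 0.34 ± 0.13, adjusted p = 0.601; 0.12 among MS13 mice). Itga11, the alpha subunit of a fibroblast integrin for fibrillar collagen, had 18.4, 21.7 and 19.9 CPM against 15.3, 14.1 and 16.6 CPM, without overlap (log2 fold change -0.39 ± 0.12, adjusted p = 0.601; -0.32 among MS13 mice). The 10 laminins, nidogens and other partners of type IV in the basement membrane divided evenly, with 5 below 0, 5 above 0 and a median of 0.04 (-0.07 among MS13 mice). Those with the highest CPM, not divided by length, were Hspg2, which encodes perlecan (385 ± 39.9 against 431 ± 88.5 CPM), and Nid1, which links laminin to type IV (217 ± 12.6 against 206 ± 34.8 CPM). As in the fibrillar collagens, MS14-2 had the highest value of Hspg2 (533 CPM) and of Nid1 (247 CPM) among the 6 mice.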

How the data were processed

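Total RNA of whole hind limb muscle from 6 mice was sequenced by the study's authors as stranded libraries. Per the labels' processing notes the tools were CASAVA 1.8.2, cutadapt 1.10, Bowtie2 2.2.7, TopHat2 2.1.1, RSEM 1.2.30 and limma, with builds mm10 and GRCm38; the annotation is not given in the sources used here. The deposited values are expected counts, estimated by the authors per gene without normalization; 2919 genes held fractional estimates, which arise where reads are divided between genes. Here they were rounded, genes were kept by filterByExpr (minimum count 10, minimum total 15), which left 12116 of 20632, and libraries were scaled by TMM. The test between genotypes was edgeR 4.0.16's quasi-likelihood F test (R 4.3.3) on all 6 mice without covariates, and p-values were adjusted by Benjamini-Hochberg over all 12116 genes. DESeq2 1.42.0 and limma 3.58.1 were alternatives. Log2 CPM for MS13 mice and deviations used a prior count of 2. The fit was tested on simulated data, where 172 of 200 genes changed 2-fold and 95 of 200 changed 1.5-fold were recovered among 12116, and none were called when none changed. In the 2-fold and 1.5-fold runs 5 and 3 unchanged genes were called. Simulated counts were drawn independently for each gene and mouse, without differences that many genes of a mouse or prefix share. These figures therefore need not hold for the real libraries. The labels name separate mice, so the p-values measure the spread between mice. The floor of 3 counts covers counting error only.

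The members, gene lists and marker lists were chosen with earlier results of these data known. The genes given by mouse were the chains of types I, III, V, XV and XVIII, Col4a1, Col4a2, Col6a1 to Col6a3, any other member with an unadjusted p under 0.05 or without overlap between genotypes, and the 3 other members of highest mean CPM (Col12a1, Col6a6 and Col14a1). From each pathway list the genes with an unadjusted p under 0.05 and the 2 of highest mean CPM were named. Col4a4, Col4a5, Col10a1, Col17a1, Col20a1, Col22a1 and Col25a1 were added after their values were seen. The type IV subset and the removal of length and GC trends were also chosen after seeing the data. Transcript lengths and coding sequences came from GENCODE M21 (20536 genes matched by symbol) and upstream windows from RefSeq on GRCm38.p6.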

Additional observations from a re-analysis of the deposited data

How the results depend on the processing

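The count of collagen genes with an adjusted p under 0.05 was 0, and ranged from 0 to 1 when each mouse was left out. The single gene was Col4a2 without the Baf155WT mouse MS13-3, a fit in which no prefix was shared between genotypes. Prefix and genotype cannot be told apart there. The count at an unadjusted p under 0.05 was 3. It was 6 of 44 without a filter on low counts (7.86% of all genes in that fit) and 1 with the mouse name prefix as a covariate (5.08% of all genes), the single gene being Col20a1 and none of the 3. It was 1 to 7 with each mouse left out, with 7 of 36 without the Baf155WT mouse MS13-3, where 23.8% of all genes passed, 5 without the Baf155ΔMF mouse MS13-2 (4.599% of all genes), and 1, Col4a2, without MS15-2, MS15-3 or MS13-1 (3.69%, 3.69% and 3.85% of all genes). The median of the other types was -0.080, and ranged from -0.102 to 0.0892 with each mouse left out. With the prefix as a covariate the log2 fold change was -0.16 for Col1a1, -0.13 for Col1a2, -0.0139 for Col3a1, -0.15 for Col5a1, -0.0319 for Col5a2, -0.00454 for Col6a2, -0.16 for Col15a1 and -0.10 for Col18a1. With scaling by library size alone, under which the median of all genes was -0.06, it was -0.0349 for Col6a1, -0.0141 for Col6a3, -0.0168 for Col15a1, -0.0276 for Col18a1 and -0.00886 for Col6a6. With the trend on transcript length removed, an alternative chosen after seeing the data, it was -0.00577 for Col6a1, -0.0937 for Col6a3, -0.0140 for Col15a1, -0.0364 for Col18a1 and -0.0686 for Col6a6. With each mouse left out the log2 fold change ranged from -0.10 to 0.34 for Col1a2, -0.0533 to 0.36 for Col5a1, -0.0699 to 0.27 for Col5a2, -0.15 to 0.14 for Col6a1, -0.15 to 0.18 for Col6a2, -0.15 to 0.16 for Col6a3, -0.0272 to 0.11 for Col15a1, -0.16 to 0.13 for Col18a1 and -0.0114 to 0.12 for Col6a6. Without a change of sign it ranged from 0.05 to 0.57 for Col1a1, 0.002 to 0.48 for Col3a1, -0.34 to -0.06 for Col12a1 and -0.40 to -0.05 for Col14a1. Over the alternatives the adjusted p of Col4a2 ran from 0.0120 to 0.992, that of Col4a3 from 0.0748 to 0.996 and that of Col6a5 from 0.0824 to 0.996, with no change of sign in these genes. The cause of these changes was not tested. No paired analysis was possible because the numbers that follow the prefix have 1 value in common between genotypes and mark no shared animal. The prefix is a separate label, of unstated meaning, and is the covariate above. With it, the genotype difference comes from MS13 mice only (1 Baf155WT and 2 Baf155ΔMF), so this fit is not independent of the MS13 values. The depth of 8426022 to 12469335 counts limits the 8 members below the filter, for which no fold change is given.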
